A study of Homo sapiens with 9 samples.

Results

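Nuclear genes that encode the respiratory chain, the mitochondrial ribosome and the protein import machinery were described here by the peaks of ARID1A, ARID1B and ARID2, alternative subunits of the chromatin remodeler SWI/SNF. A peak was counted as a member when the gene name that the authors assigned to it began with NDUF, MRPL, MRPS, ATP5, UQCR, SDH, TIMM or TOMM, or with COX followed by a digit. The rule uses gene names only. It took 374 of the 34575 ARID peaks, of which 154 of 12852 were in the ARID1A list, 76 of 8728 in the ARID1B list and 144 of 12995 in the ARID2 list. The member peaks carried 157 of the 12428 gene names in the lists. Of these names, 140 were protein-coding genes, and the other 17 were pseudogenes, an antisense RNA or a read-through transcript.

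Chromatin from HepG2, an established cell line of human hepatocellular carcinoma, was immunoprecipitated with antibodies to Arid1a, Arid1b, Arid2 and Snf5 and sequenced (ChIP-seq). There were 9 libraries, all from this 1 line per the study's text, with 2 replicates for each of the 4 antibodies and 1 input. The sample titles name no genotype or treatment, and none separates the libraries. Both replicates of an antibody were merged before peaks were called, so each subunit has 1 list, no value has a replicate error and no test between samples could be made. Differences between lists mix the subunit with the antibody and the sequencing depth, which cannot be told apart. Peak lists carry no expression values, so the cell type was not checked against markers.

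Mitochondria keep a small genome of their own, but nearly all of their proteins are encoded in the nucleus, made in the cytosol and imported. Complexes I to IV pass electrons from nutrients to oxygen and complex V, the ATP synthase, makes ATP, while the mitochondrial ribosome (mitoribosome) translates the few chain subunits encoded inside the organelle. ARID1A and ARID1B are alternative members of the BAF form of SWI/SNF, ARID2 belongs to the PBAF form, and SNF5 (BAF47, SMARCB1) is a core subunit found in both forms. The liver is rich in mitochondria. Promoters of these genes are known for sites of the transcription factors NRF1, GABPA (an ETS factor) and YY1.

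Sequences are shown first for 5 protein-coding genes at which peaks of all 3 ARIDs covered the same bases, because these are the stretches that the 3 lists share. They are those with at most 160 shared bases among the named genes with all 3 ARIDs in 1 region, taking for each gene the region with the highest SNF5 score. ATP5D also had a lower-scored region with 46 shared bases, which is not shown. Positions are on hg19 (GRCh37), sequences run 5′ to 3′ along the strand of the gene, and capitals mark GGGCGG, the element bound by SP and KLF factors, on either strand.
MRPL44, chr2:224822091-224822246, plus strand: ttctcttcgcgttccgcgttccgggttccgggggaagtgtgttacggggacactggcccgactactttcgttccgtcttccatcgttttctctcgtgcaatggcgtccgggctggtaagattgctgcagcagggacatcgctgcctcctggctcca
TIMM13, chr19:2427505-2427582, minus strand: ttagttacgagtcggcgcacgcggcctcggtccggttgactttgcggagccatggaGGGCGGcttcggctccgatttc
ATP5E, chr20:57607714-57607846, minus strand: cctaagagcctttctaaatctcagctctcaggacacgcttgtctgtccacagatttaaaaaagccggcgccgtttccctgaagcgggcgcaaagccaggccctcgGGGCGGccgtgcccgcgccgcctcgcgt
MRPL18, chr6:160211557-160211623, plus strand: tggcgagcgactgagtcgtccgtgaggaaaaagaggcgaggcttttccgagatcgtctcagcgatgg
NDUFAF1, chr15:41694693-41694744, minus strand: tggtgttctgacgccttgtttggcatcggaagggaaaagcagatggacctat
The shared stretches were 156 bases at MRPL44, 133 at ATP5E, 78 at TIMM13, 67 at MRPL18 and 52 at NDUFAF1. GGGCGG stood in 2 of the 5, and GCGCATGC, CCGGAAG, AAGATGGC and CCAAT in 0 of the 5.

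Promoters of 5 further genes (250 bases before to 50 after the start) are shown because they differ in which NRF1, ETS and YY1 elements they hold and in which peaks cover them. These 5 were chosen after their values were seen. The sequences are those of RefSeq (GRCh38.p14), placed on hg19 by an exact match. Capitals mark GCGCATGC (NRF1), CCGGAAG (ETS family, including GABPA) and AAGATGGC (YY1) on either strand.
NDUFS7, chr19:1383656-1383955, plus strand: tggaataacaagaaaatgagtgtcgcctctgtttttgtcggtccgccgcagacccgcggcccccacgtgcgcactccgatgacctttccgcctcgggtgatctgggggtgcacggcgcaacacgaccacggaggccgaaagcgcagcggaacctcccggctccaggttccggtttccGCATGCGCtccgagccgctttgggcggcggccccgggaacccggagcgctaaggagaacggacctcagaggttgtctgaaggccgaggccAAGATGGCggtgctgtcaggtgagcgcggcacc
ATP5J (now ATP5PF), chr21:27107316-27107615, minus strand: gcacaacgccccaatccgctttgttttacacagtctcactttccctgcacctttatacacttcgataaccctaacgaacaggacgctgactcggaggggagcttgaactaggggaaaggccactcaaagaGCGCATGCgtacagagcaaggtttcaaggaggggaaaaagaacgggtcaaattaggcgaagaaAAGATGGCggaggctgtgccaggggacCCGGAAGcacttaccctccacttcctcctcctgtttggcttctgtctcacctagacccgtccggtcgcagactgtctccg
SDHB, chr1:17380478-17380777, minus strand: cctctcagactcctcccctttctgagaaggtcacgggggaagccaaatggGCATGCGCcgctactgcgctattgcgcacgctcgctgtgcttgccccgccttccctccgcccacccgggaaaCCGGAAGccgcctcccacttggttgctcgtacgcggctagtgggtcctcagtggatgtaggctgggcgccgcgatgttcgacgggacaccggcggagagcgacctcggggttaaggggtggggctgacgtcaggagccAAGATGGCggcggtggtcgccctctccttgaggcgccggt
COX6A1, chr12:120875666-120875965, plus strand: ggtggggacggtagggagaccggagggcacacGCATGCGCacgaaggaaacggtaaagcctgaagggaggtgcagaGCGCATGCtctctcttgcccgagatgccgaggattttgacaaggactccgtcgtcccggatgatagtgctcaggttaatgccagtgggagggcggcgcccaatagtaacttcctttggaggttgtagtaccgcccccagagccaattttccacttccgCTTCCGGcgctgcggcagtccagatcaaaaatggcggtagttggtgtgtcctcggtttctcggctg
COX6A2, chr16:31439632-31439931, minus strand: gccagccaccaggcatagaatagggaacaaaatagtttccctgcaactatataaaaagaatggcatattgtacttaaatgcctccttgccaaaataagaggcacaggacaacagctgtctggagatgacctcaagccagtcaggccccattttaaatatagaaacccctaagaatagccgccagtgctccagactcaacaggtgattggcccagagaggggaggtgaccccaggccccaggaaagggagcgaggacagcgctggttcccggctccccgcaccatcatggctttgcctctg
At NDUFS7, a core iron-sulfur subunit of complex I, all 300 bases lay under the peaks of each ARID and of SNF5, and the window held 1 NRF1 and 1 YY1 element. At ATP5J, coupling factor 6 of the ATP synthase, 111 bases lay under ARID1A, 260 under ARID2 and 0 under ARID1B, and each of the 3 elements stood there once. At SDHB, the iron-sulfur subunit of complex II, 139 bases lay under ARID2 alone, and the window again held each element once. COX6A1, the widely expressed form of a complex IV subunit, held 2 NRF1 elements and 1 ETS element, and 281 of its bases lay under ARID1A and 159 under ARID2. COX6A2, the form of the same subunit in heart and skeletal muscle, held 0 of the 3 elements, and 0 of its bases lay under any of the 4 lists.

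Most ARID1A and ARID2 member peaks, and 53.9% of those of ARID1B, lay at promoters. The authors' promoter class (a distance under 1000 bp from a transcription start site, TSS, as read from the deposited distances and narrower than the window that the study's text states) held 133 of 154 ARID1A member peaks, or 86.4% (Wilson 95% interval 80.1 to 90.9, counting error over peaks only), against 72.6% of the whole list. It held 119 of 144 ARID2 member peaks, or 82.6% (75.6 to 88.0), against 67.0%. ARID1B was lower, with 41 of 76 member peaks, or 53.9% (42.8 to 64.7), against 37.9%. In each list the member interval lay above the share of the whole list. Of the rest, 14 ARID1A, 23 ARID1B and 15 ARID2 member peaks were distal, 7, 10 and 10 were in introns and 2, both of ARID1B, were in exons.

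Member peaks were overlapped by another ARID, sharing at least 1 bp, in 87 of 154 cases for ARID1A (56.5%, 48.6 to 64.1, against 47.6% of the whole list), 41 of 76 for ARID1B (53.9%, 42.8 to 64.7, against 40.1%) and 77 of 144 for ARID2 (53.5%, 45.3 to 61.4, against 46.9%). The interval lay above the list for ARID1A and ARID1B and included it for ARID2. When the overlap had to cover 50% of both peaks, the shares were 22.7% (16.8 to 30.0, against 17.7% of the list), 19.7% (12.3 to 30.0, against 12.5%) and 22.9% (16.8 to 30.4, against 17.1%). All 3 intervals then included the share of the list. Promoter peaks overlapped more often in the whole lists too, so the same share is given within the class. Among promoter peaks, 58.6% of ARID1A members against 49.9% of the list, 78.0% of ARID1B members against 65.5% and 58.8% of ARID2 members against 53.3% were overlapped. Outside promoters the values were 42.9% against 41.6%, 25.7% against 24.7% and 28.0% against 33.8%. Within promoters, the member interval lay just above the list for ARID1A (50.1 to 66.7). It included the list for ARID1B (63.3 to 88.0) and ARID2 (49.8 to 67.3). Outside promoters, every member interval included the share of the list. ARID2 peaks met 76 of the 154 ARID1A member peaks (49.4%, against 40.4%) and 24 of the 76 ARID1B member peaks (31.6%, against 27.2%). ARID1A peaks met 36 of 76 ARID1B (47.4%, against 32.1%) and 74 of 144 ARID2 member peaks (51.4%, against 41.7%). ARID1B peaks met 35 of 154 ARID1A (22.7%, against 20.9%) and 25 of 144 ARID2 member peaks (17.4%, against 18.1%). Both other ARIDs met 24 ARID1A, 19 ARID1B and 22 ARID2 member peaks, or 15.6, 25 and 15.3%, against 13.7, 19.2 and 13.0% of the lists.

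SNF5 peaks overlapped 122 of 154 ARID1A member peaks (79.2%, 72.1 to 84.9, against 71.3% of the whole list), 53 of 76 ARID1B member peaks (69.7%, 58.7 to 78.9, against 62.9%) and 106 of 144 ARID2 member peaks (73.6%, 65.9 to 80.1, against 67.2%). When the overlap had to cover 50% of both peaks, these shares were 19.5% (14.0 to 26.4, against 13.0%), 6.58% (2.84 to 14.5, against 5.58%) and 13.9% (9.17 to 20.5, against 7.56%). The SNF5 peaks met had median widths of 868, 956 and 868 bp, against 272.5, 145.5 and 209 bp for the member peaks. Many member peaks were thus too short to cover 50% of the SNF5 peak, even when inside it. With an overlap of 1 bp, the SNF5 share was higher where ARIDs met. It was 87.4% of ARID1A members shared with another ARID against 68.7% of those alone, 90.2% against 45.7% for ARID1B, and 89.6% against 55.2% for ARID2. The whole lists had the same order, with 89.0% against 55.1%, 90.4% against 44.5% and 88.4% against 48.5%. Shared peaks were also wider, with member medians of 338 against 202 bp for ARID1A, 157 against 111 bp for ARID1B and 299 against 143 bp for ARID2. The part of width in the overlap was not tested. Among promoter peaks, SNF5 met 78.9% of ARID1A members (71.3 to 85.0, against 73.5% of the list). For ARID1B members it met 80.5% (66.0 to 89.8, against 77.2%), and for ARID2 members 73.1% (64.5 to 80.3, against 70.5%). Within promoters, all 3 SNF5 intervals thus included the share of the list.

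**Figure D1:**
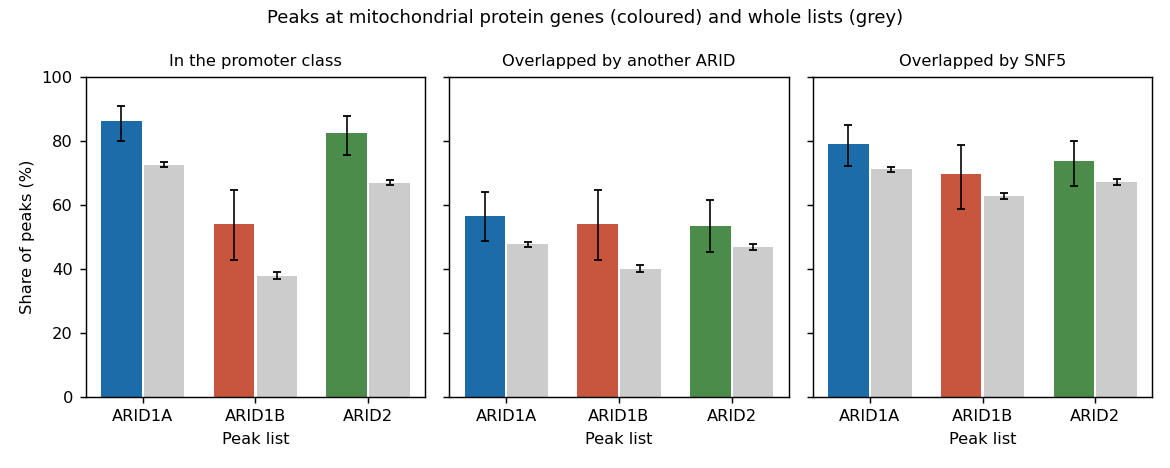
Share of peaks in percent (y axis) in each ARID list (x axis) that lay in the promoter class, met a peak of another ARID or met a SNF5 peak, for members (coloured bars) and the whole list (grey bars), with Wilson 95% intervals. The promoter shares of members (86.4, 53.9 and 82.6%) stand above the grey bars in all 3 lists. Over all peaks, the intervals for SNF5 leave the list's share in ARID1A only, and among promoter peaks alone (not drawn) in no list.

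Member peaks were short. Median widths were 272.5 bp for ARID1A (whole list 218), 145.5 bp for ARID1B (164) and 209 bp for ARID2 (189). The widest were a 1400-bp ARID2 peak at MRPL18 (chr6:160210753-160212152), a 1293-bp ARID1A peak near COX19 (chr7:1016861-1018153), which the authors classed as distal, and a 779-bp ARID1B peak at MRPL45 (chr17:36452519-36453297). MRPL18 and MRPL45 are proteins of the large mitoribosomal subunit, and COX19 is an assembly factor of complex IV. Median distances to a TSS were 101.5 bp for ARID1A members (whole list 235), 407 bp for ARID1B members (2636) and 136.5 bp for ARID2 members (423). The sequence under member peaks had a median G and C content of 65.3% in ARID1A (whole list 64.1), 57.8% in ARID1B (52.1) and 59.2% in ARID2 (57.2).

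Midpoints of promoter peaks lay near the starts, which is partly set by taking only that class and the closest start of each gene. Offsets of the whole lists are not given here. For protein-coding members in the promoter class, midpoints within 1000 bp of an annotated start of the gene lay at a median of 5 bp downstream in the ARID1A list (125 peaks, quartiles -68 and 102), at -20 bp in the ARID1B list (39 peaks, -101 and 35) and at 0 bp in the ARID2 list (113 peaks, -99 and 94). Upstream midpoints made up 44.0% of the ARID1A peaks, 64.1% of the ARID1B peaks and 49.6% of the ARID2 peaks. The quartiles of the 3 lists overlapped.

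**Figure D2:**
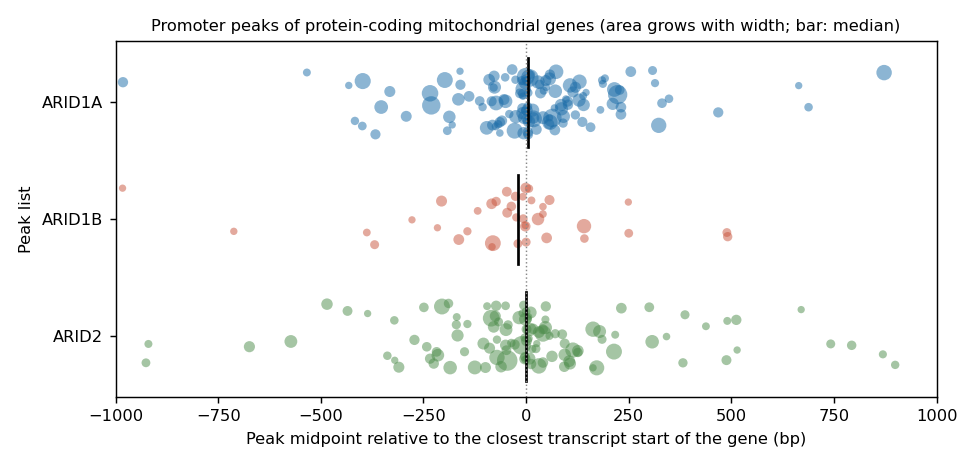
Midpoints of promoter peaks of protein-coding members in bp from the closest transcript start of the gene (x axis, negative upstream) for each list (rows); each point is a peak, its area grows with width and the bar is the median. The medians of 5, -20 and 0 bp lie within the cloud of each list.

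More than 1 ARID was given to 100 of the 157 names (63.7%, 55.9 to 70.8, against 54.3% of all names). Of the 157 names, 119 had an ARID1A peak (75.8%, against 68.0% of all names), 59 an ARID1B peak (37.6%, against 44.6%) and 110 an ARID2 peak (70.1%, against 62.8%). ARID1A with ARID2 was the commonest combination, at 47 names (29.9%, 23.3 to 37.5, against 23.0%), followed by all 3 ARIDs at 31 (19.7%, against 21.1% of all names), ARID1A alone at 29 (18.5%, against 18.3%), ARID2 alone at 22 (14.0%, against 14.2%), ARID1A with ARID1B at 12 (7.64%, against 5.63%), ARID1B with ARID2 at 10 (6.37%, against 4.59%) and ARID1B alone at 6 (3.82%, 1.76 to 8.09, against 13.3%). ARID1B was the subunit most often without a member name, and the share of names with all 3 was near that of the lists. A name had a median of 2 peaks, 50 names had 1 peak and 12 had 5 or more.

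Peaks given to the same gene met about as often as in the whole lists. ARID1A and ARID2 peaks overlapped at 60 of the 78 names that had both (76.9%, 66.4 to 84.9, against 71.0% of all such names), ARID1A and ARID1B peaks at 29 of 43 (67.4%, 52.5 to 79.5, against 62.0%), and ARID1B and ARID2 peaks at 22 of 41 (53.7%, 38.7 to 67.9, against 55.1%). Where they did not meet, the median gap was 261 bp, 489 bp and 1591 bp, respectively, against 341, 743 and 760 bp over all names. Joining all overlapping ARID peaks gave 264 regions with a member peak. Of these, 95 held 2 or 3 ARIDs (36.0%, 30.4 to 41.9, against 25.3% of all 25247 regions) and 28 held all 3 (10.6%, 7.44 to 14.9, against 7.55%). ARID1A with ARID2 made up 52 of the 264 (19.7%, against 12.5% of all regions), and ARID1B alone 35 (13.3%, against 20.7%). SNF5 peaks lay in 26 of the 28 regions with all 3 ARIDs (92.9%, against 97.4% of all such regions) and in 16 of the 35 with ARID1B alone (45.7%, against 44.5%), so these shares were near those of the lists.

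**Figure D3:**
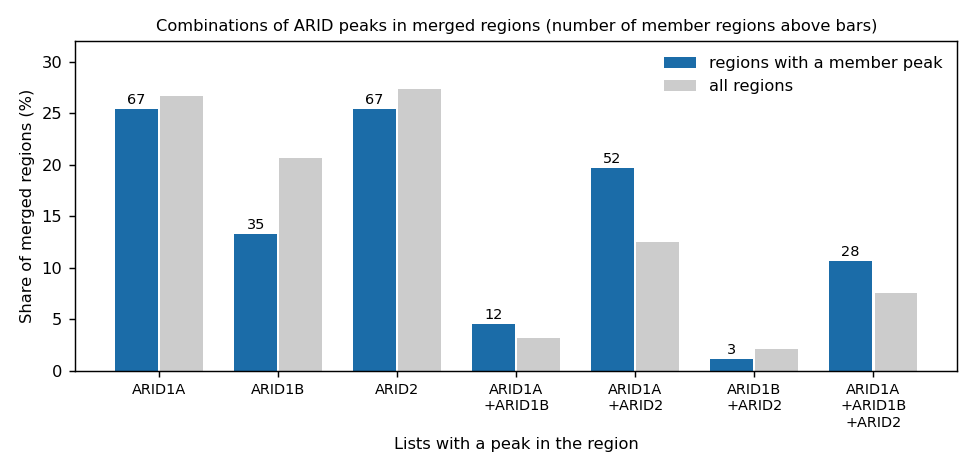
Share of merged regions in percent (y axis) by the ARID lists with a peak in the region (x axis), for the 264 regions with a member peak (blue, number above the bar) and for all 25247 regions (grey). Blue stands above grey for ARID1A with ARID2 and for all 3 ARIDs, and below it for ARID1B alone. Regions with more peaks had more ways to hold a member name, and promoter regions are not drawn apart.

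No region with all 3 ARIDs carried the name of a complex II, complex III or complex IV subunit gene. Ranked by the score of the SNF5 peak, a whole number from the peak caller whose scale is not stated, the first was NDUFS7 at a score of 47. There the ARID1A peak (chr19:1383346-1383965), the ARID1B peak (chr19:1383358-1383975) and the ARID2 peak (chr19:1383327-1384051) were 620, 618 and 725 bp wide and shared nearly all of their bases. MRPL44 followed at a score of 37, with an ARID2 peak of 845 bp around an ARID1A peak of 262 bp and an ARID1B peak of 279 bp. At MRPL1, also at 37, the ARID1A peak of 53 bp and the ARID1B peak of 227 bp each met the ARID2 peak of 306 bp but not each other. Both genes encode large mitoribosomal proteins.

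TIMM13, a chaperone for imported proteins in the intermembrane space, had a score of 33, and a 1110-bp ARID1A peak there spanned 2 ARID1B peaks of 177 and 78 bp and met a 528-bp ARID2 peak. MRPL45 had a score of 32 and wide peaks in each list (736, 779 and 888 bp). MRPL18 and MRPL30 both had a score of 27, but the ARID1B peak at MRPL18 was 67 bp wide and that at MRPL30 was 432 bp. ATP5E, the epsilon subunit of the ATP synthase, had a score of 28 and ARID peaks of 549, 155 and 342 bp. NDUFAF1, an assembly factor of complex I, had a score of 26 and peaks of 347, 52 and 174 bp. In these genes the ARID1B peak ranged from a fraction of the ARID1A peak to a wider one.

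ATP5D, the delta subunit of the ATP synthase, had more peaks than any other name, with 5 of ARID1A, 2 of ARID1B and 5 of ARID2, and all 12 met SNF5. They spread over both sides of the TSS, and a SNF5 peak of 5652 bp spanned most of them. COX20 and COX19, which help to assemble complex IV, had 9 peaks each, with 3 in every list at COX20 and 5, 1 and 3 at COX19. MRPS27, a small mitoribosomal protein, had 5 peaks and SNF5 at 0 of them, whereas MRPL48 had 5 peaks and SNF5 at each.

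**Figure D4:**
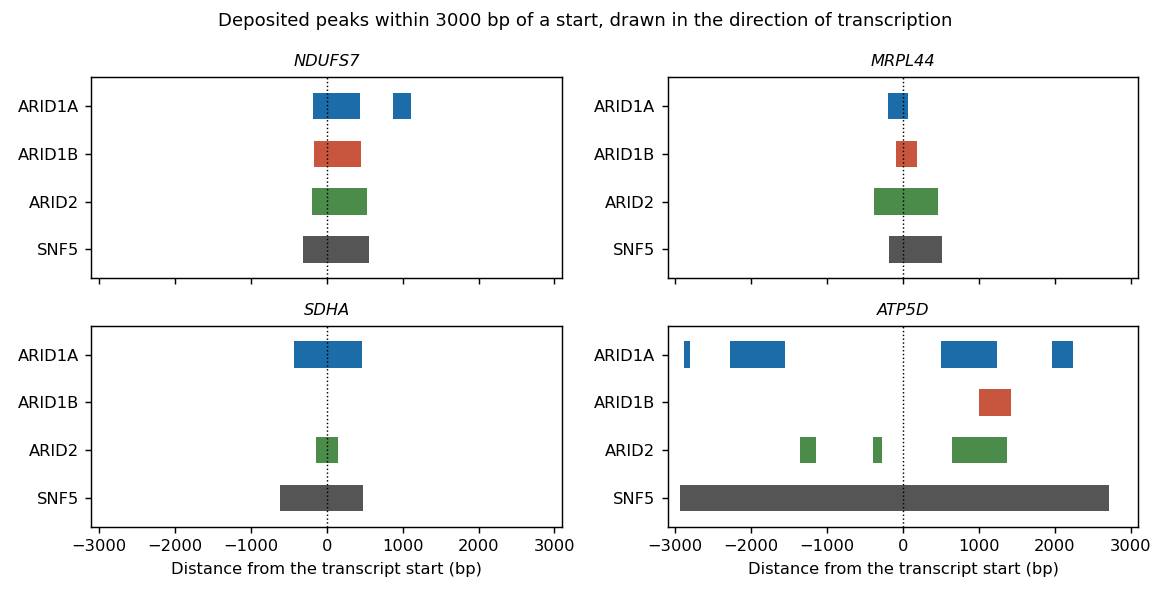
Deposited peaks (bars) of the 3 ARIDs and SNF5 (rows) within 3000 bp of a transcript start (x axis, bp, in the direction of transcription) at NDUFS7, MRPL44, SDHA and ATP5D. The peaks coincide at NDUFS7, differ in width at MRPL44, lack ARID1B at SDHA and are spread under a 5652-bp SNF5 peak at ATP5D. At ATP5D the zero is a transcript start inside the gene, whose first base is chr19:1241745. The 719-bp ARID1A peak drawn upstream there (chr19:1241783-1242501) thus lies within the gene. The ATP5D peaks at chr19:1239897-1240547 fall outside the window.

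A nearest-gene name can leave out a gene whose neighbour shares its promoter, so starts were also examined directly. Of 215 protein-coding genes of these families in the annotation (Gencode v44 lifted to GRCh37), 161 had an ARID peak within 1000 bp of a transcript start (74.9%, 68.7 to 80.2, against 44.7% of 20136 protein-coding genes). ARID1A was at 132 (61.4%, 54.7 to 67.6, against 37.4%), ARID2 at 126 (58.6%, 51.9 to 65.0, against 32.9%), ARID1B at 44 (20.5%, 15.6 to 26.4, against 13.8%) and SNF5 at 153 (71.2%, 64.8 to 76.8, against 44.0%). All 3 ARIDs were at 31 (14.4%, 10.3 to 19.7, against 10.3%). The comparison set includes genes that are silent in HepG2, and expression was not used here.

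Starts of member genes often faced another gene. A protein-coding start on the opposite strand lay upstream within 1000 bp at 84 of the 215 genes (39.1%, 32.8 to 45.7, against 16.1% of all). With such a partner an ARID was at 79.8% of member genes (67 of 84, 70.0 to 87.0) and at 76.7% of all genes. Without one, it was at 71.8% of member genes (94 of 131, 63.5 to 78.8) and at 38.6% of all genes. The member interval included the value of all genes where a partner was present and lay above it where none was. At 25 genes with an ARID at the start, no peak taken by the name rule was given to the gene. Older symbols outside the prefixes were not searched, so some of these genes may have peaks under an older name. Examples are NDUFS6 and NDUFB5, whose peaks were given to the facing genes MRPL36 and MRPL47.

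**Figure D5:**
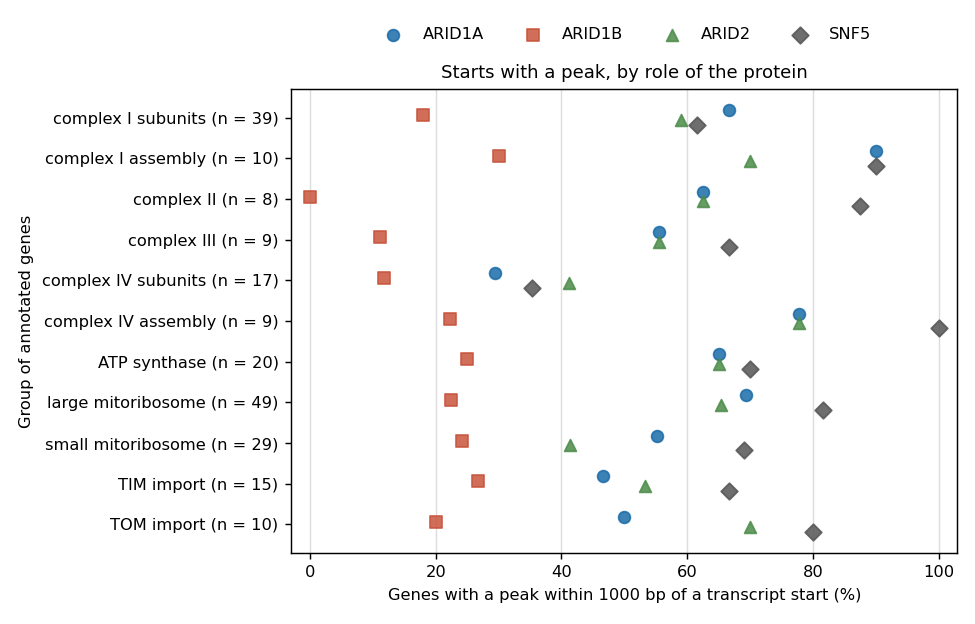
Percent of annotated genes in each group (rows, n in brackets) with a peak of ARID1A, ARID1B, ARID2 or SNF5 within 1000 bp of a transcript start (x axis). Groups were set by gene name, which does not always give the complex or ribosomal subunit of the protein. Symbols are offset vertically so that they do not hide each other. ARID1B is lowest in every group, at 0 of 8 genes of complex II (against 13.8% of all protein-coding genes). The subunits of complex IV have the lowest share for ARID1A and SNF5 (29.4 and 35.3% of 17 genes, against 37.4 and 44.0% of all protein-coding genes).

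Complex I takes electrons from NADH. It had an ARID at 31 of the 39 genes counted as its subunits by name, with ARID1A at 26, ARID2 at 23, ARID1B at 7 and SNF5 at 24. All 3 ARIDs were at NDUFA12, NDUFB3, NDUFC2, NDUFS1 and NDUFS7. NDUFS1, the largest iron-sulfur subunit, carried ARID1A alone by name, as a 996-bp peak (chr2:207023726-207024721), because the overlapping peaks were assigned to EEF1B2. Its assembly factors had ARID1A at 9 of 10 genes and SNF5 at 9 of 10, ARID2 at 7 and ARID1B at 3. The exception for ARID1A was NDUFAF2, which had SNF5 only. NDUFA1, NDUFA4L2, NDUFA5, NDUFA9 and NDUFB8 had none of the 4.

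Complex II, succinate dehydrogenase, had ARID1B at 0 of its 8 subunit and assembly genes, against 13.8% of all protein-coding genes. With only 8 genes, this 0 was not read as a trait of the complex. SDHA, the flavoprotein, had an 898-bp ARID1A peak (chr5:218055-218952) and a 294-bp ARID2 peak within it. SDHB had a 244-bp ARID2 peak (chr1:17380639-17380882) and no SNF5 peak. SDHC, a membrane anchor, had a 279-bp ARID1A peak over a 52-bp ARID2 peak. SDHD, the other anchor, had a SNF5 peak of score 17 and no ARID within 1000 bp. SDHAF1, SDHAF2, SDHAF3 and SDHAF4 assist assembly. ARID1A and ARID2 were at SDHAF1 and SDHAF3, ARID1A alone at SDHAF2, whose peak was given to another gene, and SNF5 alone at SDHAF4.

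Complex III, which reduces cytochrome c, had ARID1A and ARID2 at 5 of 9 genes each and ARID1B at 1. UQCRC1 and UQCRC2, the core proteins, both had ARID1A and ARID2. The ARID1A peaks were 138 bp (chr3:48646992-48647129) and 1103 bp (chr16:21963827-21964929), and SNF5 was at UQCRC2 only. UQCR11 had overlapping ARID1A and ARID2 peaks at its start and a 52-bp ARID1B peak in an intron. UQCRB carried ARID1B alone, as a 190-bp peak 33 bp from the TSS, with a SNF5 score of 34. UQCRH, the hinge protein, was given 3 ARID2 peaks, and an ARID1A peak near its start carried another name. UQCRFS1, the Rieske iron-sulfur protein, had none of the 4, and UQCR10 had SNF5 only.

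Complex IV, cytochrome c oxidase, had the lowest shares of ARID1A and SNF5 of all 11 groups at its subunit genes. ARID1A was at 5 of 17 (29.4%, against 37.4% of all protein-coding genes) and ARID2 at 7 (41.2%, against 32.9%). ARID1B was at 2 (11.8%, against 13.8%) and SNF5 at 6 (35.3%, against 44.0%). With only 17 genes, these shares were not read as a trait of the complex. The ARID2 share (41.2%) was near that of genes named MRPS (41.4%). Groups were set by gene name, so NDUFA4, with ARID1A, ARID2 and SNF5 at its start, was counted in complex I and not here. Several complex IV subunits exist in forms made in different tissues, and 7 genes had none of the 4: COX4I2, COX6A2, COX6B2, COX7A1, COX7A2, COX7B2 and COX8C. Of these, COX7A2 is the form made in liver, COX6A2 and COX7A1 are made in heart and skeletal muscle, COX6B2, COX7B2 and COX8C are known from testis and COX4I2 from lung. Of the widely expressed counterparts of the others, COX4I1 had ARID1A and ARID2, COX6A1 all 3 ARIDs, COX7B and COX8A ARID2, and COX6B1 SNF5 alone, whereas COX7A1 and its counterpart COX7A2 both had none of the 4. These genes were picked by their isoforms, and no test was made. Assembly factors of complex IV had ARID1A at 7 of 9, ARID2 at the same number and SNF5 at all 9. COX10 and COX16 had SNF5 without an ARID.

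The ATP synthase group had an ARID at 17 of 20 genes, with ARID1A and ARID2 at 13 each, ARID1B at 5 and SNF5 at 14. All 3 ARIDs were at the genes named ATP5A1 (the alpha subunit), ATP5E, ATP5H, ATP5J and ATP5S in the lists. ATP5B, the catalytic beta subunit, had ARID2 only and no SNF5. ATP5F1, a subunit of the peripheral stalk, had a 437-bp ARID2 peak that covered its TSS (chr1:111991886-111992322) and no other. ATP5PO, ATP5MJ and ATP5MGL had none of the 4.

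Mitoribosomal genes were split by name prefix, which does not always give the subunit that holds the protein. Genes named MRPL had an ARID at 42 of 49, with ARID1A at 34, ARID2 at 32, ARID1B at 11 and SNF5 at 40. Genes named MRPS had an ARID at 18 of 29, with ARID1A at 16, ARID2 at 12, ARID1B at 7 and SNF5 at 20. Starts with none of the 4 numbered 4 of 49 and 7 of 29. Those named MRPS were MRPS2, MRPS11, MRPS14, MRPS17, MRPS21, MRPS22 and MRPS30, and those named MRPL were MRPL19, MRPL23, MRPL41 and MRPL46. MRPL46 and MRPS11 share a promoter. The highest SNF5 score beside any member peak was 59, at MRPL40, which had ARID1A (810 bp) and ARID2 (256 bp). No test of the difference between the MRPL and MRPS genes was made.

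Import genes were split between the membranes. The TIM group of the inner membrane and intermembrane space had an ARID at 9 of 15 genes, with all 3 at TIMM9, TIMM13 and TIMM29. The TOM group of the outer membrane had an ARID at 7 of 10. TOMM20, a receptor, had all 3 (ARID1A 536 bp, ARID1B 80 bp and ARID2 299 bp) with a SNF5 score of 20. TOMM40, the channel, had ARID1A and ARID2 peaks of 282 and 96 bp that did not meet. TOMM6 and TOMM34 had ARID1A and ARID2, TOMM7 a 52-bp ARID2 peak alone, and TOMM20L a 160-bp ARID2 peak by name. TOMM22, the central receptor, and TOMM40L had SNF5 without an ARID, at scores of 21 and 26. TOMM5 had none of the 4. Reads from TIMM23 and its near-identical copy TIMM23B may not be separable.

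Names with 1 ARID only were examined for what they rest on. Of 57 such names, 10 had a peak that met a peak of another ARID given to another gene, among them COX4I1 and NDUFA7 (ARID1A by name), MRPL10 (ARID2) and ATP5S (ARID1B). The widest ARID1A-only names after NDUFS1 were COX4I1, NDUFA7, TIMMDC1 and NDUFB2, with total widths of 789, 787, 614 and 547 bp. The widest ARID2-only names were UQCRH (633 bp over 3 peaks), MRPL10 (493 bp), ATP5F1 (437 bp), MRPS33 (357 bp) and the pseudogene SDHAP3 (355 bp). The 6 ARID1B-only names were MRPS10, UQCRB, ATP5S, MRPL11 and the pseudogenes ATP5F1P6 and COX6A1P3. Their peaks were 52 to 210 bp wide. That of MRPS10 was classed as intron but lay 43.3 kb upstream of the TSS, outside the annotated span of MRPS10.

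Peaks far from starts were few in the ARID1A and ARID2 lists. A distance over 5000 bp was given to 11 of 154 ARID1A, 26 of 76 ARID1B and 11 of 144 ARID2 member peaks (7.14, 34.2 and 7.64%; whole lists 14.1, 40.7 and 15.5%). Most of the farthest were given to pseudogenes. ATP5C1P1, a copy of the gamma subunit gene, had 8 ARID1B and 2 ARID1A peaks at 11.6 to 147 kb, and the 3 farthest of ARID1B lay at 117, 144 and 147 kb. ATP5G1P3 had peaks at 25.8 to 27.0 kb and NDUFS5P2 had an ARID2 peak at 47.2 kb. COX20P1 had an ARID2 peak at 32.3 kb, and MRPS18A, a protein-coding member, an ARID1A peak at 20.2 kb.

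The 17 names that are not single protein-coding genes held 51 peaks, of which 15 were in the promoter class (29.4%) and 39 met SNF5 (76.5%). Without them, 91.3% of ARID1A, 67.2% of ARID1B and 89.0% of ARID2 member peaks were in that class. MRPL23-AS1, an antisense RNA, had 6 ARID1A peaks and 1 of each other ARID, which met at chr11:2009247-2009541. SDHAP1 and SDHAP3 (copies of SDHA) and MRPL45P2 (a copy of MRPL45) are near-identical to their parent genes, so the assignment of their promoter peaks is uncertain, as is that of the parents. The remaining names, ATP5F1P6, COX6A1P2, COX6A1P3, COX6B1P1, COX6CP2, MRPL35P2, MRPS31P5, NDUFC2-KCTD14 and UQCRHP2, had 1 to 3 peaks each.

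SNF5 without an ARID was found at 21 of the 215 starts (9.77%, 6.48 to 14.5, against 5.96% of all genes), and none of the 4 at 33 (15.3%, 11.1 to 20.8, against 49.3%). The highest SNF5 scores among the former were at TOMM40L (26), MRPL49 (24), COX16 and TIMM17A (22), and MRPL39 and TOMM22 (21). The median score over all SNF5 peaks was 19. A start without a peak is one below the threshold of the peak caller, and at an unknown depth it does not show that the subunit was absent.

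RefSeq promoters were found for 183 of the 215 genes and compared with 15843 protein-coding promoters of the same length. The NRF1 element GCGCATGC stood in 27 (14.8%, 10.3 to 20.6, against 4.26% of all), the ETS element CCGGAAG in 67 (36.6%, 30.0 to 43.8, against 14.2%) and the YY1 element AAGATGGC in 34 (18.6%, 13.6 to 24.8, against 3.91%), on either strand. GGGCGG stood in 60.1% against 58.5% and CCAAT, the NFY element, in 32.8% against 36.4%. The first 3 intervals lay above the share of all promoters, and the last 2 included it. Median G and C content was 62.0% in members and 62.7% in all promoters. Elements can overlap (CCGGAAG and AAGATGGC can share AAG, and GCGCATGC read on both strands can share GCATGC), and overlapping matches were counted separately.

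Elements were also set beside the peaks. Among members with an ARID at the start, 25 of 139 promoters held the NRF1 element (18.0%, 12.5 to 25.2), against 2 of 44 without an ARID (4.55%, 1.26 to 15.1). The ETS element was in 40.3% (32.5 to 48.6) against 25% (14.6 to 39.4), and the YY1 element in 18.7% (13.1 to 26.0) against 18.2% (9.51 to 32). The intervals overlapped for each element, and G and C content moved with the same split, at medians of 62.3 and 59.3%. Of 179 promoters placed on hg19, 120 had bases under an ARID peak, with a median of 235.5 of 300 bases. At least part of 27 of 37 NRF1 elements, 60 of 88 ETS elements and 18 of 34 YY1 elements lay under an ARID peak (73.0, 68.2 and 52.9%), while 46.2% of all promoter bases did. The 37 NRF1 matches stood in 27 promoters and include pairs that share bases. Any part of an element is met more easily than a single base, so the shares are not like for like. ARID1B covered 1 NRF1, 3 ETS and 1 YY1 element in full. A match describes the letters and does not show that a factor was bound.

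The same elements were sought in 300 bases around the midpoint of each member peak. GCGCATGC stood in 14 of 154 ARID1A windows (9.09%, 5.49 to 14.7, against 4.40% of the list), 2 of 76 ARID1B windows (2.63%, 0.725 to 9.10, against 2.01%) and 18 of 144 ARID2 windows (12.5%, 8.06 to 18.9, against 4.30%). CCGGAAG stood in 30, 12 and 27 windows (19.5, 15.8 and 18.8%, against 10.5, 5.03 and 7.93%). AAGATGGC stood in 17, 2 and 9 (11.0, 2.63 and 6.25%, against 2.86, 1.65 and 2.32%). The intervals lay above the list for CCGGAAG in all 3 lists, and for GCGCATGC and AAGATGGC in ARID1A and ARID2. GGGCGG stood in 83, 28 and 62 windows (53.9, 36.8 and 43.1%, against 53.1, 27.8 and 39.5%) and CCAAT in 36, 17 and 39 (23.4, 22.4 and 27.1%, against 26.6, 29.0 and 29.8%). Overlapping windows share sequence, and promoter peaks are a larger share of members than of the lists.

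Of 56 other genes of mitochondrial function listed beside the families, 38 were given an ARID1A peak, 37 an ARID2 peak and 13 an ARID1B peak, and 11 had all 3. A peak lay within 1000 bp of a start at 42 of the 56 for ARID1A (75%, 62.3 to 84.5, against 37.4% of protein-coding genes), 12 for ARID1B (21.4%, 12.7 to 33.8, against 13.8%), 35 for ARID2 (62.5%, 49.4 to 74.0, against 32.9%) and 49 for SNF5 (87.5%, 76.4 to 93.8, against 44.0%). Any ARID was at 45 (80.4%, 68.2 to 88.7, against 44.7%). The list was picked by hand, so these shares describe it only. Among regulators of mitochondrial genes, TFAM, the packaging factor of mitochondrial DNA, had 1 ARID1A and 1 ARID2 peak, and YY1 had 5 ARID1A peaks and 1 ARID2 peak. NRF1 itself had 1 ARID2 peak, and PPARGC1B, a coactivator, had 0 in each list. TFB1M, a methyltransferase of mitochondrial ribosomal RNA, had 3, 4 and 4 peaks in the order ARID1A, ARID1B, ARID2. The chaperone gene HSPD1 had 2, 4 and 3, and its neighbour HSPE1, which shares its promoter, had 1, 0 and 2. All 4 genes of mitochondrial DNA and RNA synthesis and stability (POLG, POLG2, POLRMT and LRPPRC) had ARID1A and ARID2, and ARID1B was given to POLG2 alone.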

How the data were processed

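Single-end reads were, per the study's methods, aligned by the authors to hg19 with bowtie2, filtered for duplicates and merged over both replicates, and broad peaks were called with MACS2, joined when close and cleared of blacklisted regions. Whether the input served as control was not stated. The deposited lists give peak positions in bp, and for each ARID peak a distance to the nearest TSS (Gencode V16), a feature class and a nearest gene. The authors' score is deposited for SNF5 only. The lists carry no read counts, so depth is unknown and intervals cover counting error only. The input library was not analysed here.

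Here, 0 peaks ran past a chromosome end. Overlap needed 1 bp. Among 291 member peaks with a midpoint within 1000 bp of a start, the deposited distance matched the distance of the midpoint within 10 bp for 213. Gencode v44 lifted to GRCh37 gave starts, and 139 names matched it as given and 18 through older symbols. The deposited chromatin state was not used. Overlapping ARID1A and ARID2 peaks carried the same feature class in 98.2% of 5618 pairs but the same state in 51.4%.

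No test was made, because each antibody has 1 merged list. Shares carry Wilson intervals and stand beside the whole list. Genes were named by rule: genes with all 3 ARIDs in 1 region (12 by SNF5 score), the 10 with most peaks, the widest and the 3 farthest peaks of each list, single-ARID genes by width, complexes II and III, the TOM group, SNF5-only starts and names that are not protein-coding. Other names, in complexes I, IV and V, the mitoribosome, the TIM group and the promoter sequences, were chosen after their values were seen. Members, gene lists and motifs were chosen with earlier results of these data known. The code was tested on simulated intervals. Python 3.11.15, pandas 2.3.3, scipy 1.17.1 and pysam 0.24.0 were used.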

Additional observations from a re-analysis of the deposited data

How the results depend on the processing

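Over 13 results and 50 alternatives, 24 stayed within the interval of the main share or within 1.5 times the main count and 26 moved. In the order ARID1A, ARID1B, ARID2, a reciprocal overlap of 50% lowered the share met by another ARID to 22.7, 19.7 and 22.9% and the share met by SNF5 to 19.5, 6.58 and 13.9%. The fall for SNF5 is limited by width, because SNF5 peaks were much wider than the member peaks. A gap of up to 1000 bp raised the shares to 81.2, 72.4 and 77.8% for another ARID, and to 89.0, 84.2 and 87.5% for SNF5. SNF5 peaks at or above the median score met 64.3, 57.9 and 62.5%. The widest 50% of peaks in each list gave 62.9% for ARID1A with SNF5, 61.5% for ARID2 with SNF5 and 89.7% for ARID2 at promoters. Without names that are not protein-coding, promoter shares were 91.3, 67.2 and 89.0%, and within 5000 bp of a TSS they were 92.9, 65.8 and 92.4%. Within 500 bp the ARID2 share was 75%. Counting promoter peaks only, 38 names had ARID1B in place of 59. The deposited single or multiple label gave the same shares as the overlaps computed here.

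No paired analysis was possible because each list was called on merged replicates, and leaving out a replicate could not be run for the same reason.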

Other observations

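The chromatin state deposited beside each peak separated promoter peaks from other peaks less well away from chromosome 1. On chromosome 1, the active promoter state was given to 81.1% of promoter peaks and 28.5% of other peaks in the ARID1A list. On the other chromosomes the values were 65.7 and 52.7%. In the ARID1B list they were 68.7 and 13.1% on chromosome 1 and 39.2 and 27.7% elsewhere. In the ARID2 list they were 79.3 and 37.5% on chromosome 1 and 61.9 and 60.3% elsewhere. Overlapping peaks carried the same state in 42.9% of 2880 ARID1A and ARID1B pairs and 38.3% of 2458 ARID1B and ARID2 pairs, while the feature class was the same in 97.4 and 97.3% of them. The cause was not tested.

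Member peaks were spread over the genome in different shares than all peaks. Chromosome 19 held 46 of the 374 member peaks (12.3%, against 5.57% of all ARID peaks) and chromosome 11 held 31 (8.29 against 4.54%), whereas chromosome 16 held 11 (2.94 against 7.06%). ATP5D alone gave 12 of the 46. How the family genes themselves are spread over the chromosomes was not set beside these shares, so they do not describe binding per gene.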
